A study of Rattus norvegicus with 35 samples.

Results

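The genes described here are 7 targets and regulators of the sterol regulatory element binding proteins (SREBPs) that serve lipid synthesis: Insig1, Srebf1, Acly, Acaca, Fasn, Scd and Scd2. They were chosen by name, as every probe-set whose only gene symbol is 1 of the 7, and all 7 were on the array, as 17 of 8740 probe-sets and 7 of 4736 genes. Scd2 has 6 probe-sets, Acly 3, Insig1, Fasn and Scd 2 each, and Srebf1 and Acaca 1 each. A further probe-set whose annotation names Scd, Scd2 and other desaturases together was not used, and probe-sets of a gene read the same transcripts, so that they are no replicates of each other.

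Messenger RNA levels were read from 35 Affymetrix rat arrays, with a separate RNA sample on each, in cells from the ventricles of neonatal rat hearts. CM-enriched cultures and cultures of fibroblasts were exposed to cyclic stretch for 24 h (MS), to 8.5 Gy of X-rays (IR) or to 10 J/m2 of UVC (UV), and the irradiated cells were sampled 24 h later. Each group has 3 arrays except the UV controls of CM-enriched fractions, which have 2, and each stressor was applied in independent experiments according to the methods. The question was whether the lipogenic targets of SREBP moved as the enzymes of sterol synthesis did in irradiated CM-enriched fractions.

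The MS controls were unstretched cells on plates coated with collagen I. The IR and UV controls were sham-treated cells, which for UV were also rinsed and given back their medium. No transgene or mutation is named in the labels, and the strain is not given in the sources used here. CM-enriched cultures were obtained by pre-plating, and for IR and UV they were sorted after treatment by centrifugal elutriation into CM-enriched fractions, which were purer than the cultures used for MS. Fibroblasts were subcultured in another serum and for longer than CM, so that cell population and culture conditions cannot be told apart. Arrays below are named by population, stressor, treatment and experiment number, with CM for CM-enriched cultures or fractions and FB for cultures of fibroblasts.

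SREBPs are transcription factors held in the endoplasmic reticulum as inactive precursors by SCAP and the Insig proteins as long as sterols are plentiful. When sterols fall, the precursors move to the Golgi, are cut and enter the nucleus, where they switch on genes of cholesterol and fatty acid synthesis, Insig1 among them. The cultured heart cell can take up fatty acids from serum and can also make them from citrate, and desaturases then turn saturated into monounsaturated fatty acids for membranes and triglycerides.

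The members share their link to SREBP at the promoter. Promoters are therefore shown for the genes with a probe-set called lower in CM-enriched fractions after IR. They are 300-base windows around a start site in RefSeq (GRCr8), 5′ to 3′ in the direction of the gene, and capitals mark every match to the letters TCACNCCAC (a sterol regulatory element), CACGTG (an E-box) or CCAAT, on either strand. The windows are chr4:8057720-8058019 on the minus strand for Insig1, chr1:253231682-253231981 on the minus strand for Scd and chr1:253118127-253118426 on the plus strand for Scd2.
Insig1: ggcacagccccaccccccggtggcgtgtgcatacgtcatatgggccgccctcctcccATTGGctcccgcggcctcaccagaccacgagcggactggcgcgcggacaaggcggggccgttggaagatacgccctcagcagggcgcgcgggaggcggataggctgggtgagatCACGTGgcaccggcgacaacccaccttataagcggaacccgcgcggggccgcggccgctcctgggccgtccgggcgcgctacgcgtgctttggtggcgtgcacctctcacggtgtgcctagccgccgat
Scd: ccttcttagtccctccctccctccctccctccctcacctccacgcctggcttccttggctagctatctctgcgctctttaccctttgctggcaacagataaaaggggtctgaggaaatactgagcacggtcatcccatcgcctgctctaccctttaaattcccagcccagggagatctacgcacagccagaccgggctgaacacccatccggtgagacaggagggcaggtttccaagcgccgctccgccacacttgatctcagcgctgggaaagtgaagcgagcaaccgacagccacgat
Scd2: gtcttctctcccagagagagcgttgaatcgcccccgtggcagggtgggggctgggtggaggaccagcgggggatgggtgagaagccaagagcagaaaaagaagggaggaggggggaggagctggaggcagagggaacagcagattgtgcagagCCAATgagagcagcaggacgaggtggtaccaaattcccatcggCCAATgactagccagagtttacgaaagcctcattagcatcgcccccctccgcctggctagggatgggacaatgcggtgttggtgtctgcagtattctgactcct
The Insig1 window holds CACGTG at position -79 from the start site and, on the other strand, CCAAT at -193. The Scd2 window holds CCAAT at -97 and -54, and the Scd window holds none of these letters. TCACNCCAC was found in no window of Insig1, Srebf1, Acly, Scd or Scd2. Nor was it in any window searched of the mevalonate and sterol enzymes, such as Fdps and Cyp51. It is held by 1.12% of 33469 promoter windows of the same length. CACGTG occurs in 6.42% and CCAAT in 37.5% of these windows. CCAAT was also present in the window of Acly (-71) and in both windows of Srebf1 (-169 in the upstream window, -131 and -108 in the other). The table used here has no window for Fasn or Acaca. No binding was measured, and a missing match says only that these letters are not in this window.

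The labels were checked against markers of cell types, as the summed normalized intensity (taken back from the log2 scale) of the measured genes of a list, without units. Myocyte markers (14 genes) summed to 40870 to 66430 on CM arrays and to 3954 to 28310 on FB arrays, and none was at the floor in a whole group, so that fibroblast cultures also held myocyte RNA. Fibroblast markers (11 genes) summed to 29140 to 39540 on FB arrays, to 29840 to 36700 on CM arrays of MS and to 5971 to 21220 on CM arrays of IR and UV. Markers of smooth muscle (5 genes), endothelium (4) and macrophages (5) had no gene called after MS or IR, and after UV 2 smooth muscle markers were lower in CM, 4 were lower in FB and the macrophage markers Cd14 and Csf1r were higher in FB. Adipocyte markers (6 genes, none called, with up to 3 at the floor in a group) summed to 448.1 to 1008. Since whole cultures and fractions were measured, fewer cells of a type and less RNA per cell cannot be told apart. The FB arrays of IR experiment 3, control and treated alike, stand apart in the level of the members, and the FB changes after IR are given with and without them.

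Levels are given as normalized log2 intensity of a probe-set, where 2.78 is the floor, and are compared only within a probe-set. Changes are log2 differences of treated over control arrays of the same numbered experiment, with the standard error (SE) of the fit, and on this floored scale they understate the change of dim probe-sets. A probe-set was called at an adjusted p under 0.05 (limma, Benjamini-Hochberg over 8740 probe-sets).

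After IR Insig1, Scd and, in 1 of its 6 probe-sets, Scd2 were called lower in CM-enriched fractions. Srebf1, Acly, Acaca and Fasn were not called. Of 17 probe-sets 14 lay below 0, 2 were at the floor on all 6 arrays and Acly J05210_at was at 0.02, and the median was -0.38, against 0 for all probe-sets tested. Down-regulation passed the test for 4 probe-sets, both of Insig1, 1 of Scd and 1 of Scd2, and up-regulation for none. Of all probe-sets 0.732% were called, 0.446% lower and 0.286% higher.

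Insig1, the retention protein of SREBP, had levels of 7.74, 8.09 and 8.47 on the CM control arrays and of 6.97, 7.04 and 7.67 on the IR-treated arrays (probe-set L13619_at). All treated arrays lay below the control arrays, without overlap, and the fall was similar in the 3 experiments (-0.77, -1.05 and -0.81). The change was -0.88 (SE 0.16, adjusted p = 0.0287, limma), a level 1.84-fold lower. The other probe-set fell by 0.67 (SE 0.12, adjusted p = 0.0287), with control levels of 7.57, 7.87 and 8.36 and treated levels of 7.08, 6.95 and 7.77. In this probe-set the groups overlapped, and the fall showed within each experiment.

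Scd and Scd2 encode stearoyl-CoA desaturases, which place the double bond in palmitoyl-CoA and stearoyl-CoA. Scd (J02585_at) was at 4.23, 5.99 and 5.76 on the CM control arrays and at 3.55, 4.79 and 4.86 on the IR-treated arrays. The ranges overlapped because experiment 1 was low in both arms, but each treated array was below its own control, by 0.68, 1.20 and 0.90. The change was -0.93 (SE 0.13, adjusted p = 0.00317, limma). The other Scd probe-set was at the floor on all 6 arrays and holds no information there.

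Scd2 (AF036761_at) was at 7.61, 7.29 and 6.80 on the control arrays and at 6.96, 6.59 and 5.53 on the IR-treated arrays. The groups overlapped, while each experiment showed a fall, and the change was -0.87 (SE 0.14, adjusted p = 0.0143, limma). The 4 other Scd2 probe-sets above the floor had changes between -0.29 and -0.86, with adjusted p between 0.270 and 0.472, and their values lay below 0 in each of the 3 experiments. The sixth, M15114_at, was at the floor.

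The lipogenic enzymes upstream of the desaturases did not pass the test after IR. Fasn, the synthase that builds palmitate, had changes of -0.67 (SE 0.28, adjusted p = 0.391) and -0.17 (SE 0.13, adjusted p = 0.704) in its probe-sets, the first of them at -0.18, -0.28 and -1.53 in the 3 experiments (8.20, 8.46 and 7.96 on control arrays against 8.02, 8.18 and 6.43). Acaca, the carboxylase that makes malonyl-CoA, was dim, with control levels of 4.83, 4.26 and 4.83 and treated levels of 2.78, which is the floor, 4.17 and 3.82. Its change of -1.05 (SE 0.35) was the most negative of the members but the most uncertain (adjusted p = 0.265). Acly, which splits citrate into acetyl-CoA, had changes of 0.02, -0.26 and -0.20 in its 3 probe-sets, and Srebf1, the gene of the SREBP form that serves fatty acid synthesis, a change of -0.19 (SE 0.16, adjusted p = 0.759). The 95% interval of the Srebf1 change ran from -0.53 to 0.15.

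**Figure D1:**
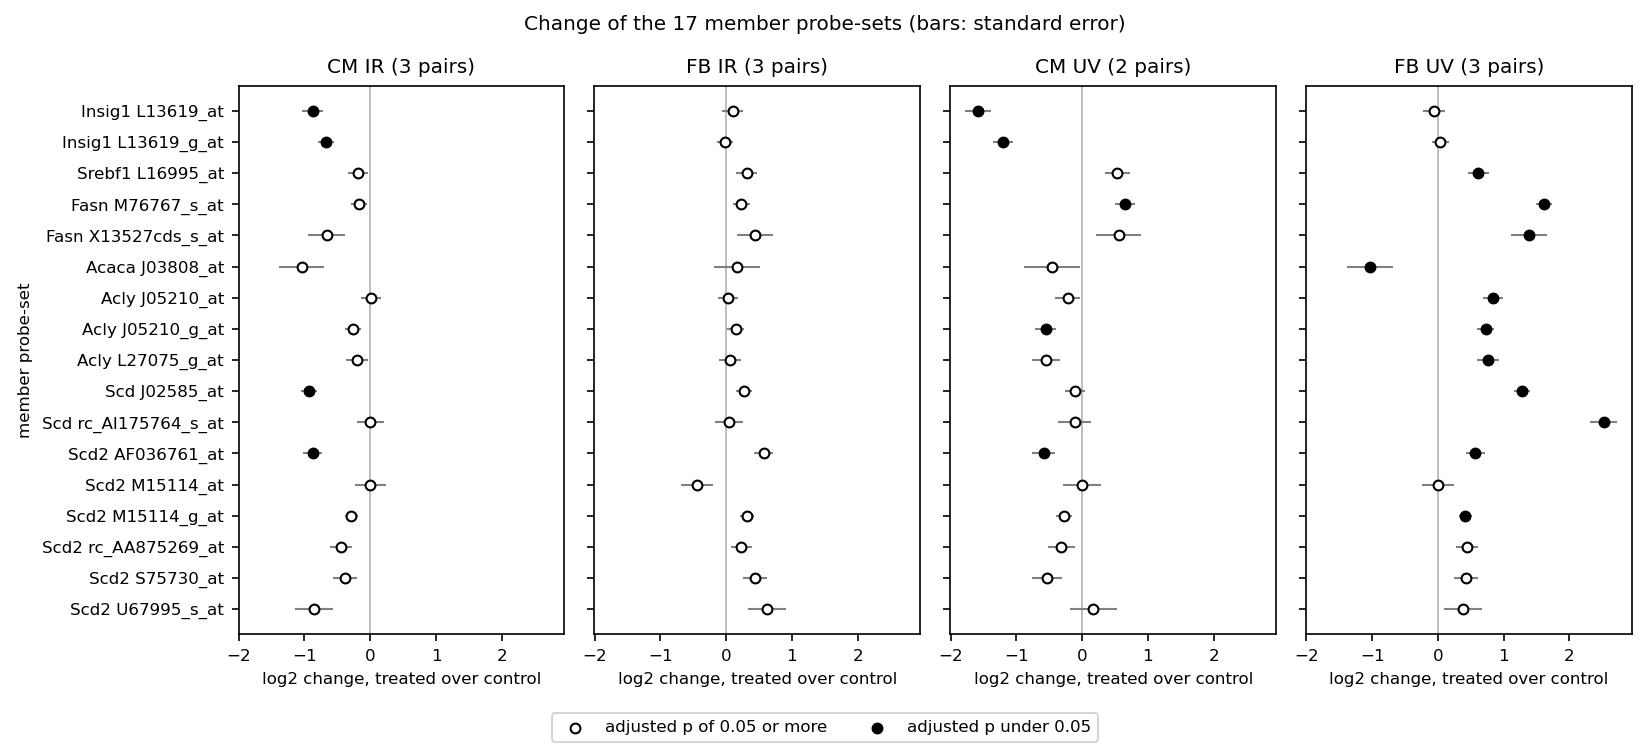
Log2 change of treated over control arrays (horizontal axis) for the 17 probe-sets (vertical axis) in CM-enriched fractions (CM) and fibroblast cultures (FB) after IR and UV; points are estimates, bars the SE, and filled points passed the test. After IR in CM 4 filled points lie left of 0, after UV in FB 10 lie right of 0, and Insig1 lies far left in CM after UV (-1.58) and at 0 in FB.

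All 4 calls after IR in CM-enriched fractions depended on the numbered experiment as a block and on all 3 experiments. Without the block no member was called (adjusted p = 0.712 for Insig1 L13619_at, limma), nor with any of the experiments 1, 2 or 3 left out. With scan as a further block only Scd remained (adjusted p = 0.0254). All CM IR control arrays shared a lot and a scan. Treated arrays 1 and 3 were of another lot and treated array 3 of another scan, so that lot and treatment are partly confounded. With lot as a further block the change is that of experiment 2 alone (-1.20 for Scd J02585_at), with a spread shared over all groups. Of the markers, 0 of 14 myocyte and 0 of 11 fibroblast markers were called, where 0.732% of all probe-sets were. Below 0 lay 12 of 14 myocyte markers (median -0.06), and above 0 lay 10 of 11 fibroblast markers (median 0.19). The part of these shifts in the result was not tested. The myocyte sum was 57040 to 63040 on control and 51050 to 62440 on treated arrays, and the fibroblast sum 13340 to 19520 and 17610 to 21220. All 6 adipocyte markers lay below 0, with a median of -0.38 and pair medians of -0.53, -0.035 and -0.60, and none was called (Fabp4 -0.96, adjusted p = 0.464; Pparg -0.36, adjusted p = 0.851). Their sum was 522.8 to 890.4 on control and 498 to 818.1 on treated arrays, with Plin1 at the floor on the treated arrays, and their part in the result was not tested.

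In cultures of fibroblasts IR called none of the 17 probe-sets. An unadjusted p under 0.05 was found for 3 of them, all of Scd2, and for 599 of all 8740 probe-sets (limma). Of all probe-sets 0.0801% were called there, 0.0343% higher and 0.0458% lower. The values lay on the other side of 0, with 15 of 17 above it and a median of 0.23. Insig1 was at 10.91, 10.78 and 9.47 on control arrays and at 11.24, 11.14 and 9.07 on IR-treated arrays, for a change of 0.10 (SE 0.16), which was not called. Experiment 3 was lowest in both arms. Scd2 AF036761_at had the smallest adjusted p, 0.321, with control levels of 10.27, 9.59 and 7.69, treated levels of 10.71, 10.23 and 8.30 and a change of 0.57 (SE 0.14). Without experiment 3 the Insig1 change was 0.35 (SE 0.16, adjusted p = 0.583) and that of Scd2 AF036761_at 0.55 (SE 0.18, adjusted p = 0.382). In that fit 16 of 17 lay above 0 with a median of 0.30, and none was called.

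The difference between the populations in the change after IR passed the test for Scd J02585_at, with CM minus FB at -1.20 (SE 0.18, adjusted p = 0.0429), and for Scd2 AF036761_at, at -1.44 (SE 0.20, adjusted p = 0.0429, limma). That is 2 of 17 probe-sets, both lower, where 0.0686% of all were called, 0.0343% lower and 0.0343% higher. For Insig1 the difference was -0.97 (SE 0.23, adjusted p = 0.270), and 16 of the 17 differences lay below 0. With FB IR experiment 3 left out, no member difference was called (adjusted p = 0.0793 for Scd, Scd2 and Insig1 alike), and the sizes stayed at -1.23 for Scd and -1.42 for Scd2.

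After UV the members went different ways in CM-enriched fractions, where 2 pairs of arrays could be compared. Insig1 fell furthest, Acly and Scd2 fell in 1 probe-set each, and Fasn rose in 1. Of 17 probe-sets 4 were called lower and 1 higher, where 16.8% of all probe-sets were called, 8.16% lower and 8.62% higher. The median was -0.28.

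Insig1 L13619_at was at 8.56 and 8.96 on the CM control arrays and at 7.28, 7.09 and 6.84 on the UV-treated arrays, of which the third has no control of its own and did not enter the paired fit. All treated arrays were well below both controls. The change was -1.58 (SE 0.20, adjusted p = 0.000205, limma), 2.99-fold lower, and that of the other probe-set was -1.20 (SE 0.15, adjusted p = 0.000218). This call was kept without the block (adjusted p = 0.0152) and with each experiment left out, where 1 pair remains if it is experiment 1 or 2 and the spread is then that of the other groups, and was lost only when the CM arrays of UV were fitted by themselves (adjusted p = 0.314).

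Fasn M76767_s_at was at 7.35 and 7.98 on the CM control arrays and at 7.98, 8.64 and 8.18 on the UV-treated arrays. Each paired array was higher than its control by similar amounts (0.64 and 0.66), and the third treated array also lay above both controls. The change was 0.65 (SE 0.15, adjusted p = 0.0126, limma), and it was not called without the block (adjusted p = 0.435) or with experiment 2 or 3 left out (adjusted p = 0.162 and 0.067). The other Fasn probe-set had 0.55 (SE 0.34, adjusted p = 0.330), with 1.07 in experiment 1 and 0.04 in experiment 2.

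Acly J05210_g_at was at 9.69 and 10.10 on the CM control arrays and at 9.03, 9.66 and 9.56 on the UV-treated arrays, each treated array below the lower control. The change was -0.55 (SE 0.16, adjusted p = 0.0314, limma), beside -0.55 (adjusted p = 0.0970) and -0.22 (adjusted p = 0.529) in the other Acly probe-sets. Scd2 AF036761_at, at 8.24 and 8.94 on control and 7.997, 8.03 and 7.76 on treated arrays, fell by 0.58 (SE 0.18, adjusted p = 0.0419), while Scd J02585_at had a change of -0.11 (SE 0.15, adjusted p = 0.789) and Srebf1 one of 0.54 (SE 0.19, adjusted p = 0.0759). The calls of Acly and Scd2 were lost without the block, without quantile normalization, with only the arrays compared, and with any of the experiments left out. Beside these results, the sum of myocyte markers was 63170 to 66430 on control and 52510 to 55860 on UV-treated CM arrays (3 of 14 called lower) and that of fibroblast markers 8684 to 15000 and 5971 to 10930 (3 of 11, the collagens Col1a1, Col1a2 and Col3a1, called lower), and the part of these shifts in the result was not tested.

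**Figure D2:**
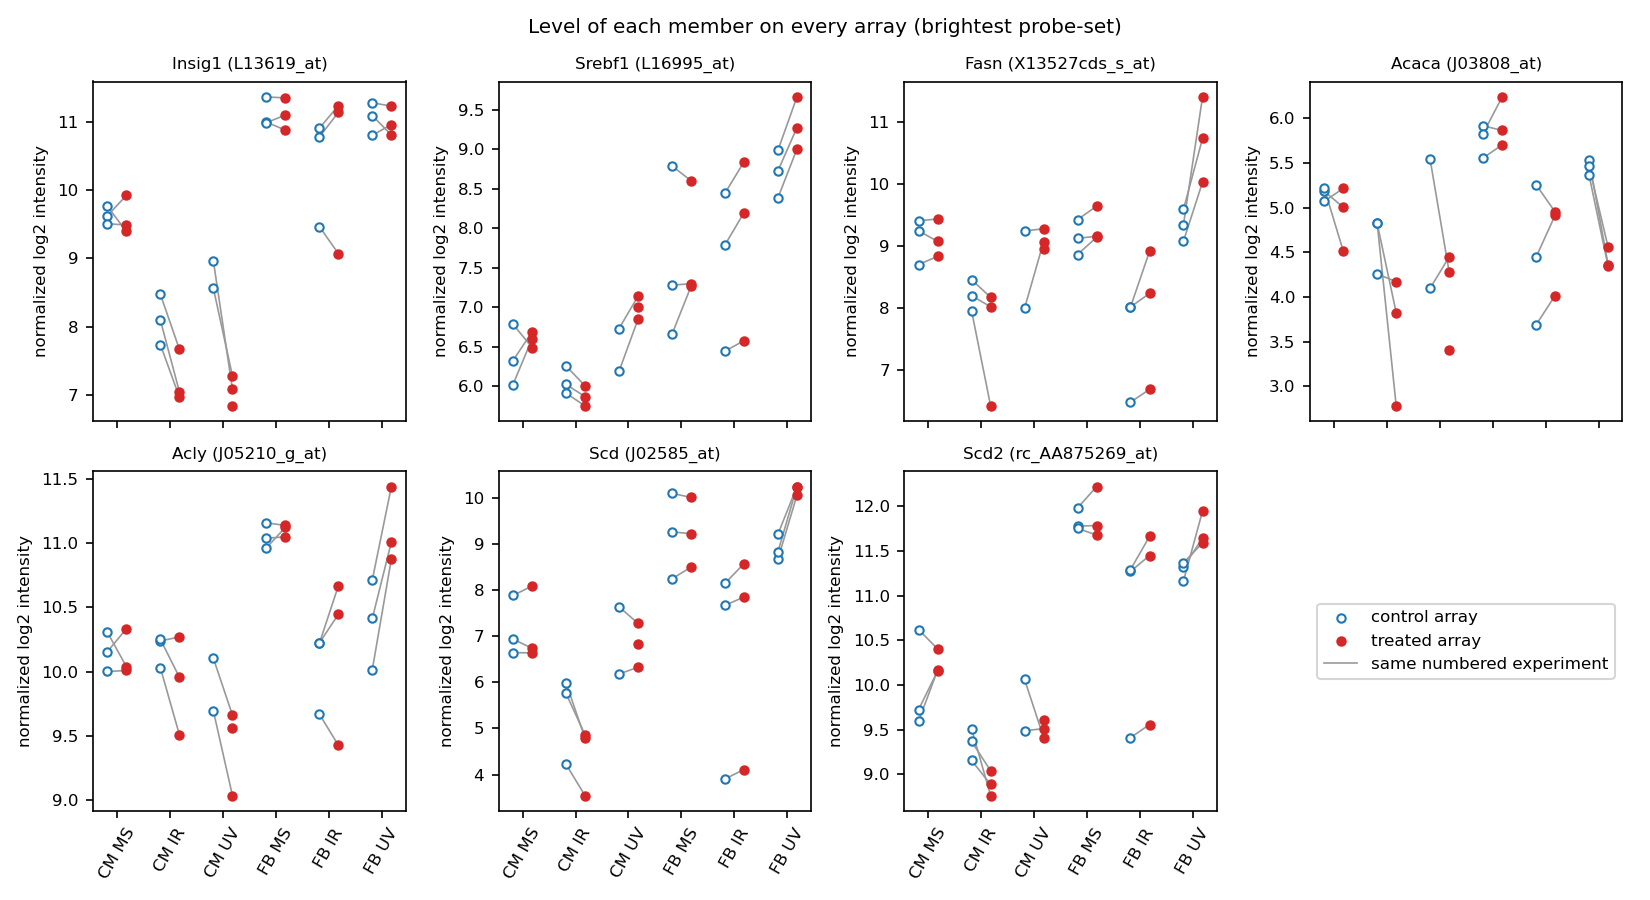
Normalized log2 intensity (vertical axes, which differ between panels) of the brightest probe-set of each of the 7 genes on control (open) and treated (filled) arrays of both populations and the 3 stressors (horizontal axis); lines join arrays of the same experiment, and the third UV-treated CM array has no line. The Insig1 panel shows all CM groups below most FB arrays and the fall after IR and UV, and FB IR experiment 3 lies lowest of the FB IR arrays for Insig1, Srebf1, Fasn, Acly, Scd and Scd2.

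In cultures of fibroblasts after UV most members rose, and Insig1 did not. Fasn, Acly, Scd, Srebf1 and 2 probe-sets of Scd2 were up-regulated and Acaca was down-regulated, in all 10 probe-sets higher and 1 lower of 17, where 22.9% of all probe-sets were called, 11.7% higher and 11.2% lower. The median of the 17 was 0.57.

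Fasn M76767_s_at was at 7.95, 8.22 and 8.41 on FB control arrays and at 9.37, 9.99 and 10.06 on UV-treated arrays. All treated arrays lay above all controls, and the change was 1.61 (SE 0.13, adjusted p = 1.88e-06, limma), 3.06-fold higher. The other Fasn probe-set went from 9.08, 9.35 and 9.59 to 10.03, 11.40 and 10.74, a change of 1.38 (SE 0.28, adjusted p = 0.00268), also without overlap. The call of M76767_s_at was kept under all 11 alternatives.

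Scd rose in both probe-sets. Levels of J02585_at were 8.67, 8.83 and 9.21 on control and 10.05, 10.23 and 10.24 on UV-treated FB arrays, and those of rc_AI175764_s_at, which was at the floor on 15 of 35 arrays, were 4.05, 3.72 and 5.10 against 7.07, 6.32 and 7.04. Neither probe-set overlapped between the groups. The changes were 1.28 (SE 0.13) and 2.52 (SE 0.21, 5.73-fold higher), with adjusted p of 1.09e-05 and 2.75e-06 in limma. Without the block the first of these was not called (adjusted p = 0.490).

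Acly rose in all 3 probe-sets, by 0.84, 0.73 and 0.77 (adjusted p = 0.00138, 0.00111 and 0.00519, limma). In J05210_g_at the levels were 10.01, 10.41 and 10.71 on control and 10.88, 11.01 and 11.44 on treated arrays, so that every treated array lay above every control. Srebf1 rose by 0.61 (SE 0.16, adjusted p = 0.0118), from 8.38, 8.99 and 8.73 to 9.002, 9.66 and 9.27, by 0.55 to 0.68 in the 3 experiments. It was not called without the block (adjusted p = 0.568) or with any of the 3 experiments left out (adjusted p = 0.0574 to 0.113).

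Scd2 rose by 0.57 (SE 0.14, adjusted p = 0.0119) in AF036761_at and by 0.41 (SE 0.10, adjusted p = 0.00882) in M15114_g_at, and its 3 other probe-sets above the floor had 0.38 to 0.44 with adjusted p of 0.0793 to 0.433. Acaca fell by 1.03 (SE 0.35, adjusted p = 0.0493, limma), from 5.53, 5.36 and 5.46 to 4.36, 4.35 and 4.56, with all treated arrays below all controls, and this call was lost without the block (adjusted p = 0.0845) and with any of the experiments left out. Insig1 was at 10.80, 11.09 and 11.28 on control and 10.96, 10.81 and 11.23 on UV-treated FB arrays, with a change of -0.06 (SE 0.16, adjusted p = 0.947) and a 95% interval from -0.41 to 0.29. The sum of myocyte markers on these arrays was 20820 to 24610 on controls and 8735 to 12420 on UV-treated arrays, with 11 of 14 called lower, and that of fibroblast markers 36540 to 39540 and 29140 to 34430, with 5 of 11 called lower, and the part of these shifts in the rise of the members was not tested. Without the block 2 of the 17 probe-sets were called, and with only the FB arrays of UV 3.

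The change after UV differed between the populations in 10 of 17 probe-sets, all lower in CM minus FB, where 6.35% of all probe-sets were called, 2.72% lower and 3.63% higher. For Insig1 the difference was -1.52 (SE 0.26, adjusted p = 0.00453), for Acly between -1.06 and -1.31, for Fasn M76767_s_at -0.96 (SE 0.20, adjusted p = 0.0141), for Scd -1.38 and -2.63, and for Scd2 -1.15 and -0.69 in the 2 probe-sets called (limma). Srebf1, which had values above 0 in both populations (0.54 and 0.61), differed by -0.08 with a 95% interval from -0.61 to 0.46. Acaca, with values below 0 in both, differed by 0.58 (SE 0.55). Without the block none of the 10 differences was called, nor with experiment 2 left out, and 3 and 5 were called without experiment 1 and 3.

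Mechanical stress called no member in either population, as it called no probe-set at all (0% of 8740, with 414 probe-sets in CM and 468 in FB at an unadjusted p under 0.05). Among the members, 3 probe-sets in CM-enriched cultures, all of Scd2, and 0 in fibroblasts had an unadjusted p under 0.05. The probe-set M15114_at among them left the floor on only 1 stretched array, with pair changes of 0, 0 and 1.57. The smallest adjusted p in CM was 0.665. Insig1 was at 9.62, 9.76 and 9.51 on unstretched and 9.92, 9.39 and 9.49 on stretched CM arrays, which overlapped. The medians over the 17 probe-sets were 0.14 in CM and 0.07 in FB.

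Set beside the enzymes of the mevalonate and sterol pathway, the members had the same sign after IR in CM and only in part after UV. Of 21 listed enzymes 14 were measured, and each gene is represented here by its brightest probe-set. After IR in CM-enriched fractions all 7 members and 13 of 14 sterol enzymes lay below 0, with medians of -0.67 and -0.33, and 2 genes of each list were called lower. The sterol enzymes called were Fdps (-0.33, SE 0.04, adjusted p = 0.00317), which makes farnesyl diphosphate, and Fdft1 (-0.46, SE 0.09, adjusted p = 0.0341), which joins it to squalene. Pair by pair the medians were -0.68, -0.33 and -0.81 for the members and -0.28, -0.43 and -0.22 for the sterol enzymes. With the median over all probe-sets of a gene the members' value was -0.42 and that of the sterol enzymes -0.38. Among the lists described below, lipid uptake and binding had 12 of 14 genes below 0 in CM after IR (median -0.14). Other enzymes of fatty acid and triglyceride synthesis had 10 of 16, the SREBP machinery 6 of 13 and fatty acid oxidation 4 of 19.

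After UV in CM-enriched fractions 13 of 14 sterol enzymes lay below 0, with a median of -0.71 and 7 called lower, among them Fdps (-1.71), Fdft1 (-0.95), Mvk (-1.77), the mevalonate kinase, and Msmo1 (-0.84), a C4-methylsterol oxidase. Of the members 5 of 7 lay below 0, with a median of -0.31, and 2, Insig1 and Acly, were called lower through their brightest probe-set. The pairs were split for the members, at 0.15 and -0.44, and not for the sterol enzymes, at -0.94 and -0.72. Insig1, at -1.58, thus lay among the sterol enzymes, whereas Fasn (0.55) and Srebf1 (0.54) had values above 0.

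After UV in fibroblasts 7 sterol enzymes were called higher and 0 lower, with a median of 0.48, among them Idi1 (1.17), Msmo1 (0.48), Cyp51 (0.53) and Sqle (0.51). The members had 4 called higher and 1 lower, with a median of 0.61. The change after UV differed between the populations for 9 of the 14 sterol enzymes, all lower in CM minus FB. No test compared the lists with each other, and CM-enriched fractions and fibroblasts of a stressor have their own controls.

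**Figure D3:**
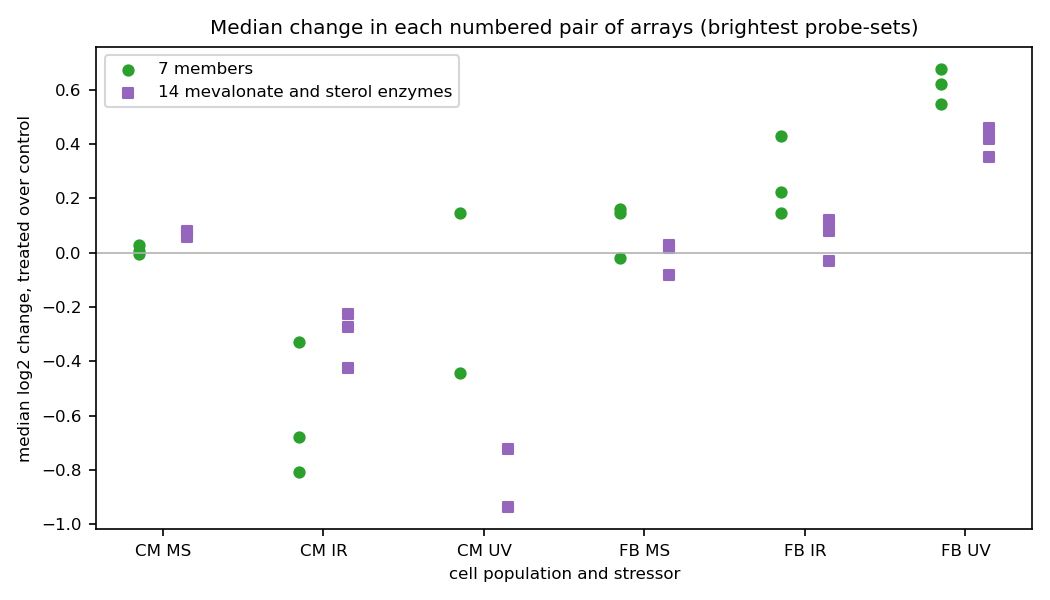
Median log2 change of treated over control (vertical axis) in each numbered pair of arrays for the 7 members (circles) and the 14 mevalonate and sterol enzymes (squares), by population and stressor (horizontal axis). In CM after IR all pairs of both lists lie below 0 (-0.33 to -0.81 for the members), in CM after UV only the sterol enzymes do so in both pairs, and in FB after UV all lie above 0.

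**Figure D4:**
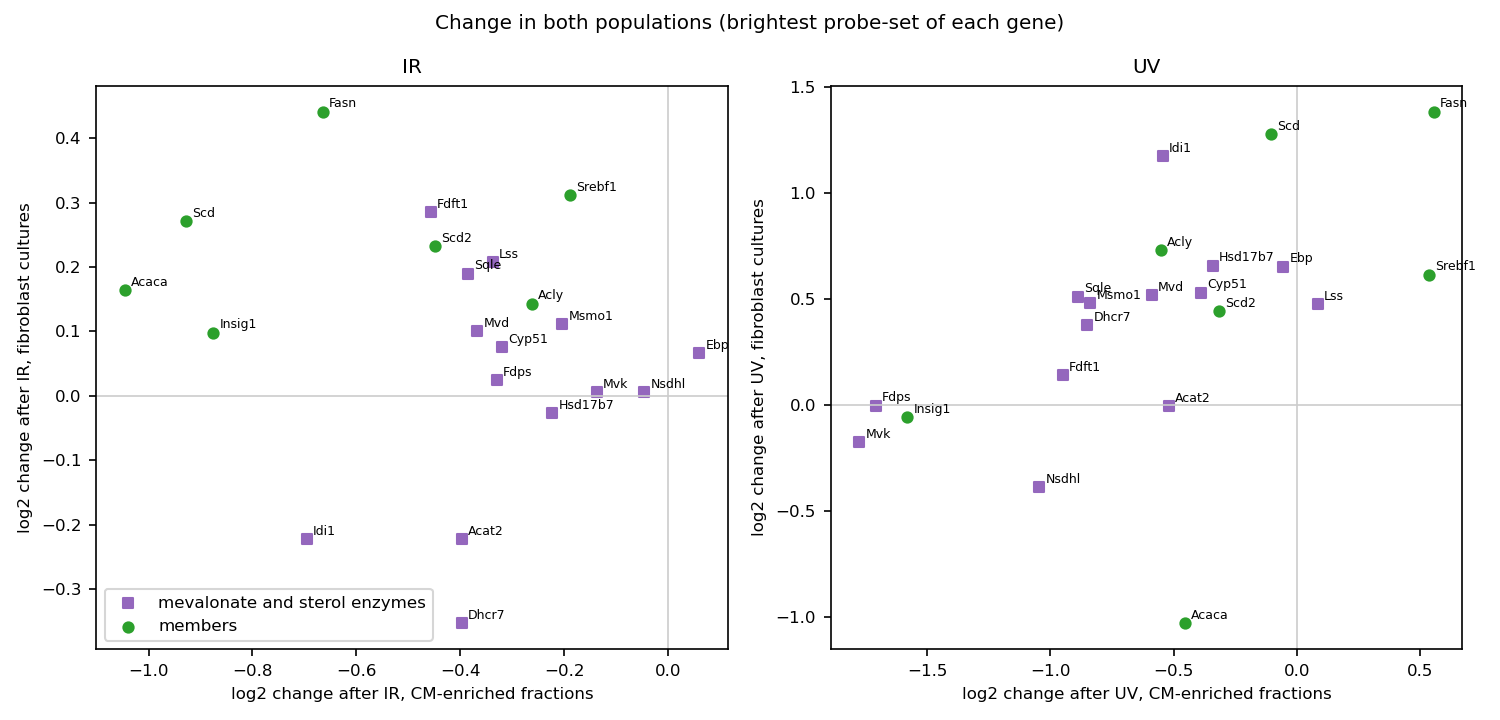
Log2 change in CM-enriched fractions (horizontal axis) against that in fibroblast cultures (vertical axis) after IR and UV, with a point for the brightest probe-set of each member (circles) and sterol enzyme (squares). After IR the members lie left of 0 and above 0, and after UV Insig1 lies beside Fdps at the far left (-1.58 and -1.71) while Fasn lies at the upper right (0.55 in CM and 1.38 in FB).

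Whether a member responded differently to IR and UV was tested within each population, a comparison chosen after its values were seen. The stressors were separate experiments with their own controls, and the CM-enriched fractions differed in purity according to the methods. Stressor and experiment, and in CM also purity, cannot be told apart in this comparison. In CM-enriched fractions the change after IR minus that after UV was -0.82 for Fasn M76767_s_at (SE 0.20, adjusted p = 0.0234) and -0.82 for Scd J02585_at (SE 0.20, adjusted p = 0.0229, limma), 2 of 17 probe-sets both lower, where 9.02% of all were called, 4.46% lower and 4.55% higher. The members' share called in either direction, 11.8%, was near that of all probe-sets. For Insig1 the change after IR minus that after UV was 0.70 (SE 0.26, adjusted p = 0.116, limma). In fibroblasts 4 of 17 were called, all lower after IR, where 14.4% of all were called, 7.12% lower and 7.27% higher. They were Fasn M76767_s_at (-1.38), both probe-sets of Scd (-1.005 and -2.47) and Acly J05210_at (-0.82).

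In untreated cells Insig1 and Scd2 were lower in CM than in fibroblasts under all 3 stressors' controls, and Fasn and Acaca were not called in any. Srebf1 was also lower in the IR and UV controls, and Acly and Scd in the MS controls, by a call in at least 50% of a gene's probe-sets. Of the 17 probe-sets 10 were called lower in the controls of MS, 7 in those of IR and 8 in those of UV, and 0 were called higher, where 23.4%, 25.6% and 23.1% of all probe-sets were called in either direction, 12.8%, 13.2% and 11.9% lower and 10.5%, 12.4% and 11.2% higher. The log2 difference of Insig1 L13619_at was -1.48, -2.28 and -2.29 (SE 0.39, 0.39 and 0.44; adjusted p = 0.00768, 8.49e-05 and 0.000344, limma). Scd2 was called in 5, 4 and 4 of its 6 probe-sets. In the IR controls the brightest probe-sets of Fasn (0.70), Acaca (0.17) and Acly (0.14) had values above 0. Without FB IR experiment 3 the count for the IR controls was 11. Without experiment 1 the counts for MS, IR and UV were 4, 2 and 2, and without experiment 2 they were 2 each.

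Over the 12 groups, Insig1 took its 6 highest means in fibroblasts (10.38 to 11.11) and its 6 lowest in CM, falling from 9.63 ± 0.13 (SD, n = 3) in MS controls to 8.76 ± 0.28 (n = 2) in UV controls, 8.10 ± 0.37 in IR controls, 7.23 ± 0.38 in IR-treated and 7.07 ± 0.22 in UV-treated arrays. The last pair of groups did not differ beyond the SD, nor did any neighbours among the fibroblast groups. Scd J02585_at ran from 10.18 ± 0.11 in UV-treated fibroblasts down to 4.40 ± 0.74 in IR-treated CM, and its FB IR groups had an SD of 2.32 and 2.39 because of experiment 3 (3.91 and 4.11 against 7.67 to 8.57 in experiments 1 and 2). Controls of the same population differed between stressors, which were run as separate experiments.

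The probe-sets of a gene were compared over the 17 pairs, as a description, since pairs of a stressor share conditions. Their changes correlated with r = 0.95 for Insig1, 0.82 for Fasn, 0.76 for Scd, 0.71 to 0.76 for Acly and 0.61 to 0.91 for Scd2 without M15114_at, which was at the floor on 32 of 35 arrays. Between genes, r was highest for Fasn and Scd (0.84), Acly and Scd (0.78) and Insig1 and Acly (0.72), and it was 0.09 for Insig1 and Srebf1. Acaca had r between -0.26 and 0.34 with the others.

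Among 5780 probe-sets of other genes above the floor in at least 50% of the arrays, the changes most like those of Insig1 over the 17 pairs were those of Rasa1 (r = 0.89), Fdps (0.85) and Fdft1 (0.85). For Scd2 they were Idi1 (0.81), Lss (0.78) and Hif1a (0.78), for Acly Por (0.85), Sst (0.84) and Msmo1 (0.83), and for Scd Dgat1 (0.85), Acsl3 (0.85) and Parp1 (0.84). For Fasn they were Vcp (0.92), Safb (0.91) and Epcam (0.91), for Srebf1 Ptger2 (0.83), Sh2b3 (0.79) and Odf2 (0.79), and for Acaca Notch2 (0.78), Thy1 (0.74) and Sardh (0.73). Sterol enzymes thus stood among the nearest genes of Insig1, Scd2 and Acly and not of Fasn, Srebf1, Acaca or Scd.

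Other genes of lipid supply were counted in 4 further lists, and genes named as higher or lower had an adjusted p under 0.05 in limma. Their counts after UV stand beside 16.8% of all probe-sets called in CM and 22.9% in fibroblasts, and no test set the lists against these shares. After IR none of the 4 lists had a gene called in either population, where only 0.732% of all probe-sets were called in CM and 0.0801% in fibroblasts. Of 13 measured genes of the SREBP machinery and related transcription factors, 3 were higher after UV in CM-enriched fractions, Prkaa1, a catalytic subunit of the AMP-activated kinase (1.51), Rxrb (0.68) and Nfyb (0.59), and 3 were higher and 1 lower in fibroblasts, where Nfya (1.34), Nfyb (0.69) and Prkaa1 (1.29) rose and Prkaa2 fell by 0.69. Nfya and Nfyb encode subunits of the factor that binds CCAAT.

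Of 16 measured other enzymes of fatty acid and triglyceride synthesis 4 were lower in CM after UV: Acacb, the mitochondrial counterpart of Acaca (-2.35), the elongase Elovl5 (-0.60), Hsd17b12, which acts in elongation (-1.03), and Acsl4 (-0.63). In fibroblasts 5 were higher and 4 lower, with Dgat1, which makes triglyceride (0.72), and Acsl3 (0.92) higher and Hsd17b12 (-2.01) and Me1, a source of NADPH (-1.44), lower. Of 14 genes of lipid uptake and binding the lipoprotein receptor Vldlr fell in both populations after UV, by 1.43 in CM and by 2.07 in fibroblasts, as did Fabp3, by 0.72 and 0.26, while Lpl, the lipoprotein lipase, fell by 1.67 in fibroblasts. Slc27a1 (0.46) was higher and Olr1 (-1.53) lower in CM, and Dbi (0.55) was higher in fibroblasts. In this list 2 were higher and 3 lower in CM, and 3 higher and 5 lower in fibroblasts. Of 19 genes of fatty acid oxidation none was called in CM after UV. In fibroblasts Cpt1a rose (0.58) and Hadhb and Decr1 fell, by 0.65 each. On the FB arrays of UV 11 of 14 myocyte markers were also called lower, and on the CM arrays 3 of 14. The part of these shifts in the changes of the 4 lists was not tested.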

How the data were processed

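Labelled RNA was hybridised to 35 Affymetrix rat arrays. The authors deposited linear intensities of 8799 probe-sets, and the software that made it is not given in the sources used here. The values of an array were scaled to a trimmed mean of about 200.3 (26 arrays) or 1001.5 (9 arrays, all CM). No pair mixes these scales. The gcrma, VSN and probe model described in the methods are not part of these intensities. Scan records exist for 16 arrays and gave scan and lot.

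Arrays were brought to a common 75th percentile. Scaled values under 6.88, their 20th percentile, were set to it before log2 and quantile normalization. Between 14.5% and 24.7% of an array lay at the floor. Control probe-sets (59) were left out. In the annotation 7006 probe-sets have 1 symbol, 308 several and 1426 none. The log2 values of the deposited intensities were fitted in limma 3.58.1 (lmFit, eBayes with trend; R 4.3.3, statmod 1.5.0) over all arrays with the numbered experiment within population and stressor as a block (17 pairs, 11 residual degrees of freedom). Untreated CM and fibroblasts were compared in a fit of group means. Tests were two-sided, adjusted by Benjamini-Hochberg over 8740 probe-sets. The pipeline was tested on simulated data with known changes, at an adjusted p under 0.05 in limma. Of 2-fold changes 68% were recovered for CM after IR, 51% for CM after UV and 67% for FB after UV. Of 1.5-fold changes 26%, 14% and 30% were recovered, so that changes of this size are often missed. Of the calls 14.3%, 12.1% and 6.5% were wrong.

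Pairing follows the numbers in the titles, where no number was taken as 1. Deviations from the group mean correlated by 0.06 to 0.80 within pairs, and in 6 of 6 pairs with a sample number in both scan records it was the same. No arrays hold identical values. The number of arrays limits the precision.

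Genes named are all members, up to 4 called genes of a list with the smallest adjusted p, and the 3 genes most like each member. Members and lists were chosen with earlier results of these data known. Alternatives changed the block, normalization, floor, filter, variance model, arrays fitted and replicates. Promoter windows are RefSeq's (GRCr8).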

Additional observations from a re-analysis of the deposited data

Results flagged for a closer look

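The change after UV differed between CM-enriched fractions and fibroblasts by its own test (limma, adjusted p under 0.05) in 10 probe-sets, as CM minus FB on the log2 scale. The values were -1.52 and -1.23 for the probe-sets of Insig1, -0.96 for Fasn M76767_s_at, -1.06, -1.28 and -1.31 for Acly, -1.38 and -2.63 for Scd, and -1.15 and -0.69 for Scd2 AF036761_at and M15114_g_at. Insig1 differed because it fell in CM (-1.58) with -0.06 in fibroblasts, whereas for Scd the rise lay in fibroblasts (1.28 and 2.52). After IR the difference was called for Scd J02585_at (-1.20) and Scd2 AF036761_at (-1.44).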

How the results depend on the processing

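Directions were followed after IR and UV for called probe-sets and for the brightest of each gene. None were followed in FB after IR, where no member was called, or after MS. They held for nearly all values followed. Most counts of calls were lower without the numbered experiment as a block, with only the arrays compared and with 1 replicate left out. Without the replicate block, the calls among 17 probe-sets went from 4 to 0 in CM after IR, from 5 to 2 in CM after UV, from 11 to 2 in FB after UV, and the differences between populations from 2 to 0 after IR and from 10 to 0 after UV. With a random block these counts were 0, 2, 6, 0 and 3, and with only the arrays compared 0, 0, 3, 0 and 0, where fewer arrays leave fewer degrees of freedom. Leaving out 1 replicate at a time gave 0 to 0 in CM after IR, 2 to 3 in CM after UV, 6 to 8 in FB after UV, 0 to 0 and 0 to 5 for the differences after IR and UV, and for untreated CM against FB 2 to 10 in MS and IR and 2 to 9 in UV. The scaled values without quantile normalization gave 3 calls in CM after UV and 1 difference after IR. A pseudocount or a floor at the 40th percentile also gave 1 difference after IR. With scan as a block CM after IR had 1 call and the IR difference 0. With lot as a block the CM change after IR, and so the IR difference, rests on CM experiment 2 alone. Untreated CM against FB of IR had 2 calls with only the arrays compared, and 11 without FB IR replicate 3, which also left 0 differences after IR. Leaving out replicate 1 or 2 leaves 1 CM pair of UV, whose spread is then taken from the other groups. The setting without FB IR replicate 3 was chosen after seeing the data. The sterol enzymes' median in FB after UV was 0.39 over all probe-sets of a gene. Signs of uncalled values turned, with 1 replicate left out, for Acaca (-1.26 to 0.36), Scd J02585_at (-0.36 to 0.15) and Scd2 rc_AA875269_at (-0.65 to 0.023) in CM after UV, Insig1 L13619_at (-0.16 to 0.053) in FB after UV, and the UV difference of Srebf1 (-0.19 to 0.085), Fasn X13527cds_s_at (-1.57 to 0.022) and Acaca (-0.30 to 1.40). Among values not followed, Insig1 L13619_g_at in FB after IR went from -0.015 to 0.098 without experiment 3. Scd2 U67995_s_at in CM after UV had 1.17 and -0.82 in its pairs. The cause of these turns was not tested. Dim probe-sets such as Acaca and the floored probe-sets of Scd and Scd2 limit what can be seen.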
